A study of Arabidopsis thaliana with 18 samples.

Results

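Aux/IAA and GH3 genes are the 2 auxin-response gene families described here, in cotyledons, apical hooks and hypocotyls of dark-grown Arabidopsis thaliana seedlings with and without 4 of the PIF transcription factors. The genes were listed by AGI code under a rule of family membership: 29 Aux/IAA genes and 8 GH3 genes of group II, 37 in all. Of these, 36 were found among the 26073 genes listed in each library, and 1 GH3 gene of the rule was not analysed here. The groups were wild type (WT) of ecotype Col-0 and pifq, the homozygous pif1pif3pif4pif5 mutant in the same ecotype, each with 3 libraries from cotyledon, hook and hypocotyl. The seedlings behind all 18 libraries were 4 d old and had been kept in continuous darkness, at 22 °C, on MS with 3% sucrose. The titles put Bio before the replicate number, and the labels say no more on whether cultures were separate. Every p-value measures the spread between these samples, which was wider than counting noise (chi-square per gene of 9.05 to 38.9 between replicates, where counting alone gives about 1) and may in part be technical.

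Auxin lets Aux/IAA repressors bind the TIR1 and AFB receptors, which mark them for destruction. This frees the ARF transcription factors that the repressors hold silent together with TPL corepressors. Many Aux/IAA genes and several GH3 genes are themselves switched on by ARFs, so that repressor and enzyme feed back on the signal. GH3 enzymes of group II join the auxin indole-3-acetic acid to amino acids, and DAO enzymes act in auxin oxidation. In a dark-grown seedling, auxin drives hypocotyl elongation, and its uneven distribution across the hook keeps the hook closed. PIFs bind G-box and related motifs in DNA and maintain the dark form of growth, and many of their known targets act in auxin synthesis or response.

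Depth was 12955815 to 20701103 reads or read pairs per library, which makes 1 read in a gene of 1 kb worth 0.0483 to 0.0772 FPKM. PIF3 fell from 54.4 to 3.16 FPKM in pifq cotyledons, from 87.7 to 2.0 FPKM in hooks and from 51.8 to 3.91 FPKM in hypocotyls, which fits the genotype labels, and PIF5 fell in each organ. PIF1 fell in hooks and rose in hypocotyls and PIF4 rose in hypocotyls, and since the labels do not say where these alleles are mutated, their levels check nothing. HLS1, a gene required for hook formation, was at a median of 35.3 FPKM in WT cotyledons, 20.1 FPKM in WT hooks and 6.20 FPKM in WT hypocotyls, so its level did not single out the hook. Its median in pifq was 2.93, 2.67 and 1.77 FPKM in the same organs, with no overlap between the genotypes in any of them. Leaf blade markers (TCP3, TCP4, TCP10, TCP24 and AS1) summed to a median of 164.9 FPKM in WT cotyledons, 73.6 FPKM in WT hooks and 29.4 FPKM in WT hypocotyls. In pifq their sum was 164.8, 139.9 and 43.1 FPKM in the same organs, and the hook libraries of the genotypes did not overlap (62.97 to 82.2 FPKM in WT, 136.2 to 156.5 FPKM in pifq). AS1 was the largest part of the hook sums, at 38.7 FPKM on average in WT and 91.5 FPKM in pifq. TCP4 overlapped between the genotypes in hooks. Organelle-encoded transcripts took 2.58% to 4.05% of all FPKM in WT cotyledons and 0.145% to 0.227% in those of pifq, 2.08% to 4.11% against 0.10% to 0.119% in hooks, and 1.01% to 3.34% against 0.0970% to 1.61% in hypocotyls. Xylem markers (IRX3, XCP1 and XCP2) summed to 50.7 to 60.5 FPKM in WT hooks and 92.0 to 118.7 FPKM in those of pifq, with no overlap, and overlapped in the other organs (30.1 to 38.47 against 38.46 to 49.3 FPKM in cotyledons, 259.8 to 274.6 against 246.6 to 261.2 FPKM in hypocotyls). Shoot meristem markers (STM, CLV3, WUS, CUC2 and CUC3) summed to 10.6 to 13.6 FPKM in WT hooks and 17.6 to 28.0 FPKM in those of pifq, to 4.53 to 8.31 against 0.739 to 1.91 FPKM in cotyledons, and to 1.82 to 2.37 against 3.86 to 6.11 FPKM in hypocotyls. WUS was at 0 in WT cotyledons, pifq cotyledons and WT hooks. CUC3 ran against the sum in cotyledons, at 0.525 FPKM on average in WT and 0.713 FPKM in pifq, and overlapped there. Root markers (RHD6, COBL9, EXPA7 and WOX5) summed to at most 1.47 FPKM in cotyledons and hooks, and to 1.67 to 4.14 FPKM in WT hypocotyls and 0.694 to 5.52 FPKM in those of pifq. COBL9 and EXPA7 had 0 reads in pifq hypocotyl replicate 3 and 25 to 41 in the other pifq hypocotyl libraries. The part of these levels in the results below was not tested. Replicate 2 of the pifq hooks stood apart on the first principal component, at -19.1 against -53.3 and -54.8. Hook differences between genotypes whose call depends on it are named below. Differences between organs were not followed gene by gene without it. Replicate 3 of the pifq hypocotyls had the lowest correlations across genes of any library with its own group, at r = 0.956 and 0.970. Its organelle share was 0.0970%, against 0.870% and 1.61% in the other pifq hypocotyl libraries. Without this replicate, 21 Aux/IAA and GH3 genes were called higher and 3 lower in pifq hypocotyls than in WT. In bulk tissue, fewer cells of a type and less RNA per cell cannot be told apart.

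The auxin-dependent binding of an Aux/IAA protein to its receptor rests on a short degron, whose core is glycine, tryptophan and a pair of prolines. Its codons, in any synonymous form and with no gap, were looked for in frame in the longest annotated coding sequence of each Aux/IAA gene (RefSeq, TAIR10.1). They were found in 23 of 29 genes, and the 6 genes without them were IAA20, IAA30, IAA31, IAA32, IAA33 and IAA34. The windows of 36 bases below are those of genes whose levels the results turn on, with the core codons in capitals, 5′ to 3′ on the coding strand. IAA7 lies at chr3:8195565-8195600 (plus strand), IAA14 at chr4:8349475-8349510 (minus), IAA17 at chr1:1136935-1136970 (plus), IAA1 at chr4:8361433-8361468 (plus), IAA3 at chr1:1129016-1129051 (minus), IAA4 at chr5:17550737-17550772 (plus), IAA6 at chr1:19673320-19673355 (minus), IAA8 at chr2:9637722-9637757 (plus) and IAA28 at chr5:9033809-9033844 (plus), all in exons.
IAA7: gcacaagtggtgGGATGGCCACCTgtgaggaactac
IAA14: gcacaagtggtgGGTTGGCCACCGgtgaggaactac
IAA17: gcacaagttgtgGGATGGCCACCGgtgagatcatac
IAA1: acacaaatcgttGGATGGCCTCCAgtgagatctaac
IAA3: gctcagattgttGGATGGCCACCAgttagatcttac
IAA4: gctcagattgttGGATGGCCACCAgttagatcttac
IAA6: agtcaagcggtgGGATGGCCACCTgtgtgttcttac
IAA8: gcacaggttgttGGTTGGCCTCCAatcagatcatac
IAA28: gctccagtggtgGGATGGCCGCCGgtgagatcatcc
The windows of IAA3 and IAA4 were identical over 36 of 36 bases, and those of IAA7 and IAA14 over 34 of 36. IAA7 and IAA17 shared 30 of 36 bases. Only these windows were compared, and whether reads can be shared between the genes was not examined. How the authors' counting treated shared reads is not given in the sources used here.

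The 300 bases before each annotated gene start were searched on both strands for the G-box CACGTG, its variant CACATG and the auxin response elements TGTCTC and TGTCGG (RefSeq, TAIR10.1). CACGTG stood in 5 of 36 genes, against 7.67% of the same window in all 24068 protein-coding genes listed. CACATG stood in 12 of 36 against 13.2%, TGTCTC in 14 of 36 against 12.9% and TGTCGG in 6 of 36 against 5.13%. In 3 of the 36 windows an annotated neighbouring gene overlapped the bases searched. The stretches below are those of the 5 genes with CACGTG, cut 20 bases outside the outermost match, with every match to any of the motifs in capitals. They lie on the plus strand, at chr3:8194564-8194605 for IAA7, chr3:5263797-5263956 for IAA19, chr2:19307581-19307670 for IAA20, chr3:22995567-22995655 for IAA30 and chr4:17579439-17579616 for GH3.2.
IAA7: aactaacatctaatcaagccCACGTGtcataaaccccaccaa
IAA19: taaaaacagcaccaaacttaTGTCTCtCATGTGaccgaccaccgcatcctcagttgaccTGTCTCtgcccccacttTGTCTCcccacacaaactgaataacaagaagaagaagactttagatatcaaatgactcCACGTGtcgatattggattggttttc
IAA20: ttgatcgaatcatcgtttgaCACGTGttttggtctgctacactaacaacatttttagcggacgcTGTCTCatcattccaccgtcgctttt
IAA30: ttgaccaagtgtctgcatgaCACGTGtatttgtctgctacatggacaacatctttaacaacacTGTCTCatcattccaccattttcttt
GH3.2: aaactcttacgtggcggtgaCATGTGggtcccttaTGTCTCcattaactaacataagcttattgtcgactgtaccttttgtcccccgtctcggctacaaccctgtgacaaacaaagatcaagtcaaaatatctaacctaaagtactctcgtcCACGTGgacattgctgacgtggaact
IAA20 and IAA30, which encode closely related repressors without the degron core, both held CACGTG followed by TGTCTC, at -113 and -69 and at -99 and -56 bases from the gene start. A match describes the letters in this window and shows neither a site nor a cause. GH3.9, GH3.6, IAA17 and IAA28 held none of the motifs in it, which says nothing of any factor.

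In WT, both families were low in cotyledons and higher in the growing axis. Summed over its 29 genes, Aux/IAA transcript stood at 466 ± 17.8 FPKM in WT cotyledons (SD, n = 3), 1379 ± 79.9 FPKM in WT hooks and 1565 ± 295 FPKM in WT hypocotyls. The cotyledon libraries lay below all others, and those of hook and hypocotyl overlapped. The 7 GH3 genes summed to 39.99 ± 6.74 FPKM in WT cotyledons, 115 ± 5.99 FPKM in WT hooks and 87.9 ± 9.28 FPKM in WT hypocotyls. The organs did not overlap in FPKM as deposited. IAA8, IAA9 and IAA16 led in WT cotyledons and held 48.6% of the Aux/IAA sum there. IAA7, IAA17 and IAA9 led in WT hooks, with 46.1%, and the same 3 genes held 66.6% in WT hypocotyls, where IAA17 alone took 32.2%. Within GH3, GH3.5 took 73.0% of the sum in WT cotyledons, 47.98% in WT hooks and 47.9% in WT hypocotyls.

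Aux/IAA transcript summed to 494 ± 26.4 FPKM in pifq cotyledons, 1142 ± 221 FPKM in pifq hooks and 1965 ± 173 FPKM in pifq hypocotyls. In FPKM as deposited, these sums overlapped those of WT in cotyledons and hooks. In hypocotyls all 3 pifq libraries lay above all 3 of WT. Median-ratio scaling, tried below, divides each library by a factor. Factors were 0.946 to 0.994 in WT cotyledons and 0.815 to 0.858 in pifq cotyledons. They were 1.04 to 1.09 and 1.16 to 1.24 in hooks, and 0.887 to 0.919 and 1.05 to 1.09 in hypocotyls. Such division raises pifq sums against those of WT in cotyledons and lowers them in hooks and hypocotyls. Whether the Aux/IAA sums overlap depends on the scale used. The GH3 sum was 30.3 ± 5.76 FPKM in pifq cotyledons and 136 ± 19.4 FPKM in pifq hooks, both overlapping WT. In pifq hypocotyls it was 207.8 ± 7.41 FPKM, against 87.9 ± 9.28 FPKM in WT, with no overlap. GH3.9 took 47.1% of the GH3 sum in pifq cotyledons, where GH3.5 held 16.2%. IAA17 held 17.1% of the Aux/IAA sum in pifq hypocotyls.

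**Figure D1:**
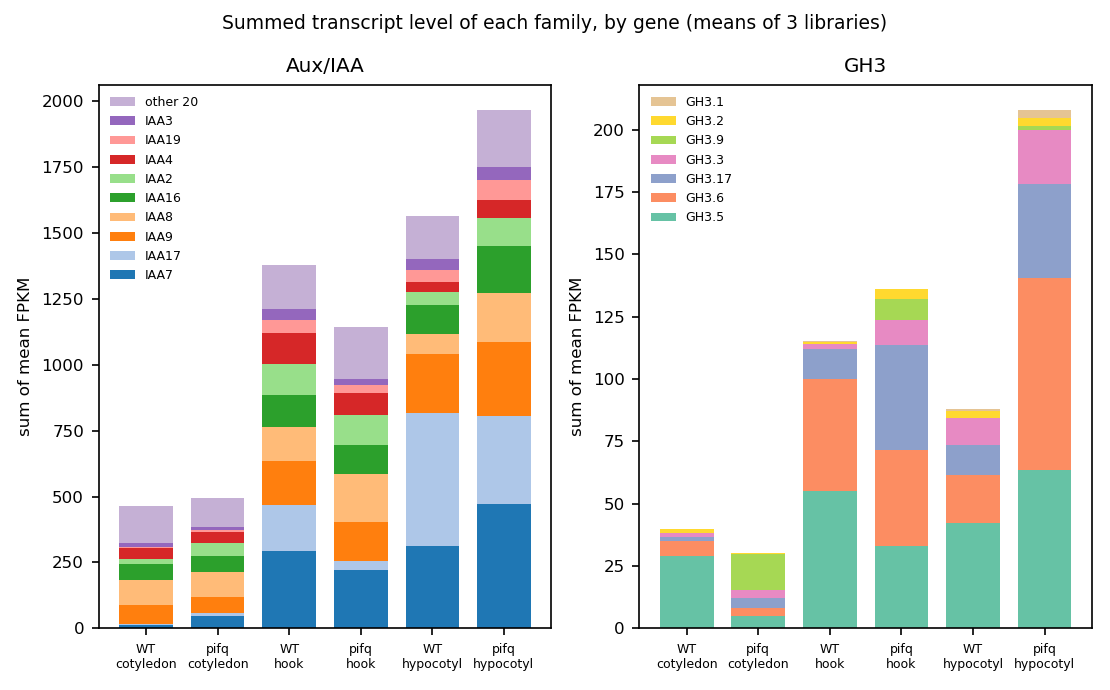
Summed mean FPKM of the 29 Aux/IAA genes (left) and 7 GH3 genes (right) in the 6 groups, stacked by gene, each bar the sum of means over 3 libraries. The pifq hypocotyl bars are the tallest of each panel, at 1965 and 207.8 FPKM, and GH3.9 is the main segment of the pifq cotyledon bar on the right.

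**Figure D2:**
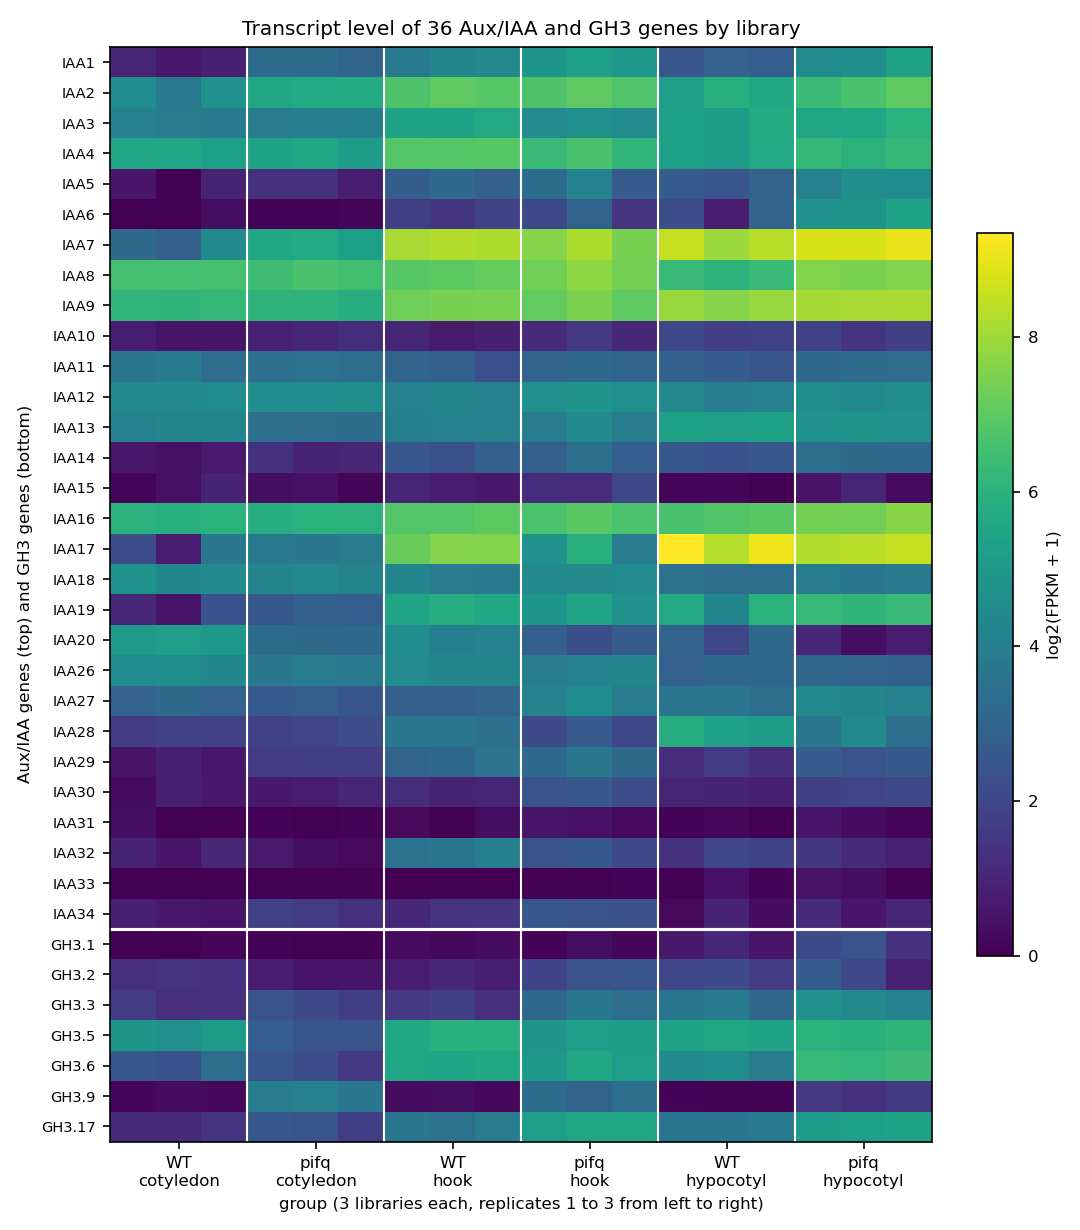
Transcript level as log2(FPKM + 1) of 36 genes (lines, Aux/IAA above GH3) in 18 libraries (columns, by group). IAA17 and IAA7 are lower in each cotyledon library than in the hypocotyl libraries of the same genotype, IAA8, IAA9 and IAA16 are bright in all groups, and GH3.9 is dark in the 9 WT libraries and lighter in pifq.

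Of the 36 genes, 34 passed the filter of 1 FPKM in at least 3 libraries and were tested with limma among 19349 genes. IAA31 and IAA33 did not pass, and their highest values in any library were 0.475 and 0.419 FPKM. Between WT organs, 21 of 34 genes were higher in hook than in cotyledon and 4 lower, where 33.9% of all genes were higher and 23.9% lower. In hypocotyls, 22 were higher than in cotyledons and 6 lower, with 36.3% and 37.7% of all genes. Set against the hook, the hypocotyl had 9 genes higher and 13 lower, with 22.8% and 41.9% of all genes. In pifq, 25 genes were higher in hook than in cotyledon and 2 lower (IAA20 and GH3.9), beside 53.4% and 11.4% of all genes. The pifq hypocotyl had 26 higher and 5 lower than the cotyledon (49.5% and 22.4% of all genes), and 15 higher and 9 lower than the hook (27.1% and 37.6%). The widest WT organ difference was that of IAA17, 3.58, 0.658 and 12.1 FPKM in cotyledons against 651, 313 and 549 FPKM in hypocotyls. IAA20 ran the other way in WT, from 33 ± 3.51 FPKM in cotyledons to 18.4 ± 3.91 FPKM in hooks and 5.95 ± 2.63 FPKM in hypocotyls. IAA32 was highest in WT hooks, at 12.6 ± 2.43 FPKM against 0.805 ± 0.274 FPKM in WT cotyledons and 2.41 ± 0.741 FPKM in WT hypocotyls.

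Set against WT, pifq had genes of both families higher and others lower in each organ, except that no GH3 gene was lower in hypocotyls. In cotyledons 12 of 34 genes were higher in pifq and 5 lower (limma, adjusted p under 0.05), 9 and 3 of them Aux/IAA and 3 and 2 GH3, where 24.4% of all genes were higher and 35.4% lower. In hooks 14 were higher and 8 lower, with 10 and 7 Aux/IAA and 4 and 1 GH3, beside 36.6% and 24% of all genes. In hypocotyls 21 were higher and 4 lower, with 15 and 4 Aux/IAA and 6 and 0 GH3, beside 35.9% and 16.5%. The hook counts lay near the shares of all genes, while fewer of the 34 were lower in cotyledons, and more were higher in hypocotyls, than those shares give. The median log2 change of the 34 genes was 0.017 in cotyledons, 0.238 in hooks and 0.636 in hypocotyls, and that of all genes -0.098, 0.119 and 0.171. Groups did not overlap for 20, 22 and 27 of 34 genes in the 3 organs, beside 67.6%, 66.3% and 56% of all genes. Over the 3 organs, 24 genes were higher in at least 1 and lower in none (40.4% of all genes), 6 were lower in at least 1 and higher in none (35.5%), and 4 went both ways (11.3%). Called genes had groups that did not overlap, except GH3.6 in cotyledons, IAA14 in hooks and IAA32 in hypocotyls. Groups also did not overlap, without a call, for IAA9, IAA12, IAA27 and GH3.2 in cotyledons, IAA19 in hooks, and IAA7, IAA15 and IAA19 in hypocotyls.

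Median-ratio scaling of the libraries moved the median of all genes by 0.14 in cotyledons, -0.143 in hooks and -0.199 in hypocotyls on the log2 scale. It moved the share of higher genes among all calls from 40.8% to 54.9%, from 60.4% to 48.2% and from 68.5% to 46.2%. With it, 14 of the 34 genes were higher and 4 lower in cotyledons, 11 and 10 in hooks, and 17 and 5 in hypocotyls. The shares of all genes called higher or lower with this scaling are not given here, for these counts or those between organs below. Calls lost with it were those of GH3.6 in cotyledons, of IAA10, IAA14 and IAA18 in hooks, and of IAA9, IAA11, IAA12 and IAA18 in hypocotyls. Gained were IAA5 and IAA12 as higher in cotyledons, IAA9 and IAA16 as lower in hooks, and IAA26 as lower in hypocotyls. Between organs in pifq the scaling moved the median of all genes by -0.413 for hook against cotyledon, by -0.292 for hypocotyl against cotyledon and by 0.133 for hypocotyl against hook, and the share of higher genes among all calls from 82.5% to 43.1%, from 68.9% to 51.8% and from 41.9% to 52.6%. The 34 genes then had 22 higher and 5 lower in hook than in cotyledon, 26 and 7 in hypocotyl than in cotyledon, and 15 and 8 in hypocotyl than in hook. Between WT organs it moved that median by -0.092, 0.076 and 0.179 in the same order, and the share from 58.6% to 49.3%, from 49.1% to 52.9% and from 35.2% to 50.1%. Higher and lower genes of the 34 then numbered 21 and 6, 23 and 6, and 10 and 12. Listed genes that overlap IAA3, IAA11, IAA13 and IAA32 on the opposite strand averaged at most 5.85 FPKM in any group, and their reads cannot be told apart from those of these genes without strand.

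**Figure D3:**
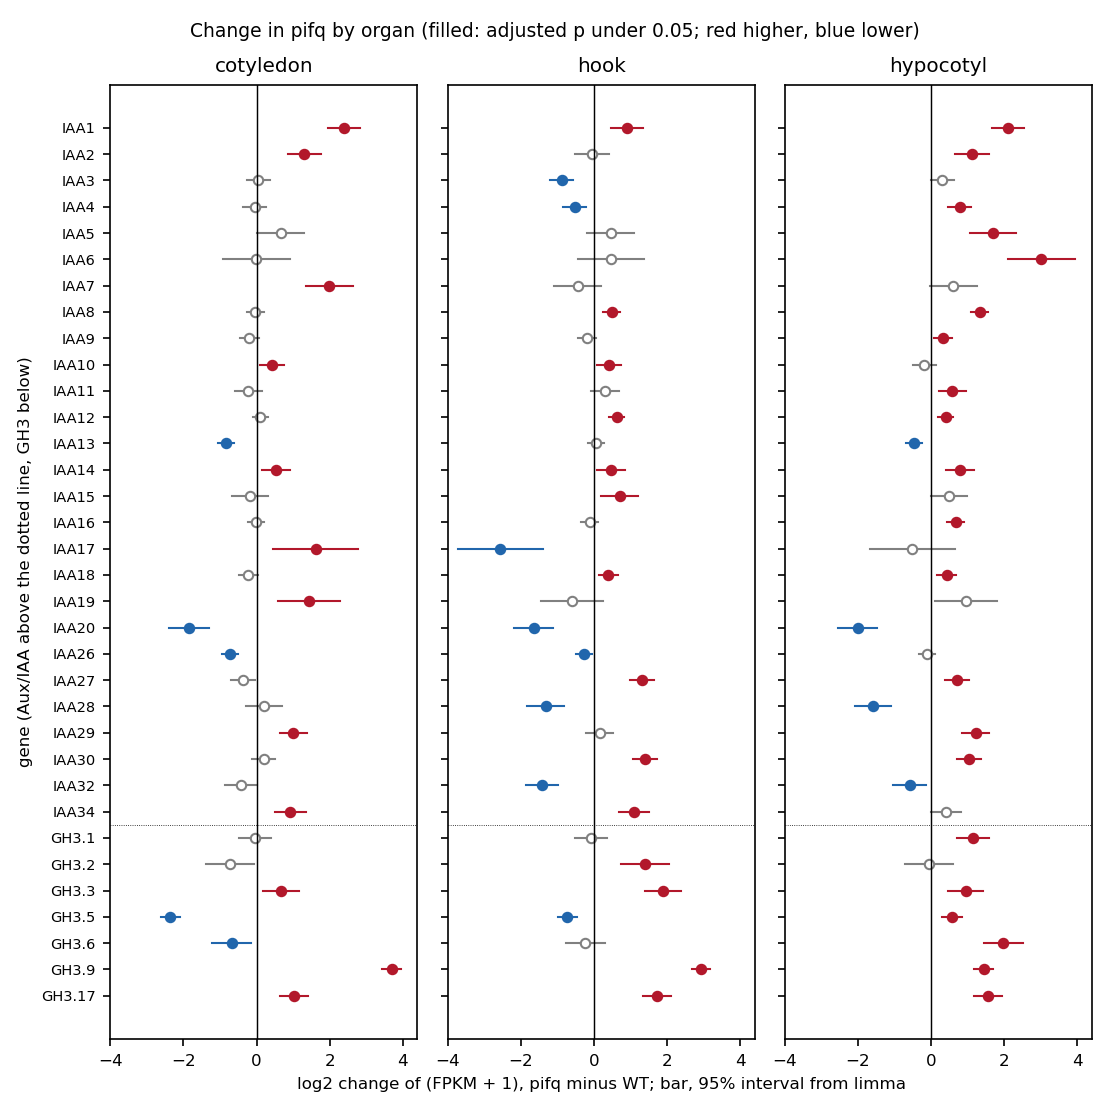
Log2 change of (FPKM + 1) in pifq against WT for the 34 tested genes in cotyledon, hook and hypocotyl, with 95% intervals from limma, and filled points where the adjusted p was under 0.05. Most filled points in the hypocotyl panel lie to the right of 0 (21 higher, 4 lower), while IAA20 lies to the left in all 3 panels.

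IAA1 to IAA4 encode repressors of the early auxin response. IAA1 (AT4G14560, chr4:8360996-8362033) was at 0.979, 0.549 and 0.787 FPKM in WT cotyledons and 8.91, 8.79 and 7.18 FPKM in those of pifq (log2 change 2.39 ± 0.20 SE, adjusted p = 6.26e-08). In hooks it was at 13.5, 18.1 and 20.01 FPKM in WT and 29.4, 39 and 30.9 FPKM in pifq (log2 change 0.91 ± 0.20 SE, adjusted p = 0.00113), and in hypocotyls at 4.63, 6.64 and 5.87 and 21.9, 23.3 and 40.6 FPKM (log2 change 2.10 ± 0.20 SE, adjusted p = 5.61e-07). IAA1 thus rose in all 3 organs with no overlap between genotypes. IAA2 (AT3G23030, chr3:8180646-8182095) rose from 20.7 ± 6.61 to 51.2 ± 2.8 FPKM in cotyledons (log2 change 1.31 ± 0.22 SE, adjusted p = 6.63e-05) and from 47.6 ± 11.5 to 104 ± 25 FPKM in hypocotyls (log2 change 1.11 ± 0.22 SE, adjusted p = 0.000435). In hooks it was at 119 ± 11.8 FPKM in WT and 115 ± 12.5 FPKM in pifq (log2 change -0.05 ± 0.22 SE, adjusted p = 0.842). IAA3 (AT1G04240, chr1:1128149-1129689), known as SHY2 from mutants that show features of light growth in darkness, fell in the hook from 40.9, 40.4 and 48.6 FPKM to 22, 25.2 and 21.8 FPKM (log2 change -0.88 ± 0.15 SE, adjusted p = 8.72e-05). Each pifq hook library lay below each WT hook library. In the other organs IAA3 was not called, at 14.5 ± 1.47 and 14.9 ± 0.386 FPKM in WT and pifq cotyledons and 41.2 ± 9.8 and 50.5 ± 9.61 FPKM in hypocotyls. IAA4 (AT5G43700, chr5:17550179-17551715), whose degron window equals that of IAA3, fell in the hook from 117 ± 2.05 to 82.1 ± 15.2 FPKM (log2 change -0.52 ± 0.15 SE, adjusted p = 0.00584) and rose in the hypocotyl from 40.9 ± 7.95 to 70.00 ± 6.16 FPKM (log2 change 0.78 ± 0.15 SE, adjusted p = 0.000377). In cotyledons it was at 42.1 ± 3.8 FPKM in WT and 40.9 ± 6.31 FPKM in pifq (log2 change -0.05 ± 0.15 SE, adjusted p = 0.802).

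IAA5, IAA6 and IAA19 form a related group, and IAA19 is known from the msg2 mutant, whose hypocotyl bends poorly to light and gravity. IAA6 (AT1G52830, chr1:19672476-19673652) was at 3.63, 0.674 and 7.22 FPKM in WT hypocotyls and 27.1, 27.5 and 40.9 FPKM in those of pifq (log2 change 3.01 ± 0.43 SE, adjusted p = 2.81e-05). All 3 pifq libraries lay above the WT libraries, which differed widely among themselves. In cotyledons IAA6 had 0 to 4 reads per library in either genotype, and in hooks it was at 2.3 ± 0.486 and 4.0 ± 2.7 FPKM in WT and pifq without a call. IAA5 (AT1G15580, chr1:5365512-5366497) rose in hypocotyls from 5.66 ± 1.1 to 20.6 ± 4.34 FPKM (log2 change 1.69 ± 0.30 SE, adjusted p = 0.000224). It was not called in cotyledons, at 0.458 ± 0.441 and 1.27 ± 0.506 FPKM in WT and pifq, or in hooks, at 6.7 ± 1.25 and 10.4 ± 5.58 FPKM. AT1G15570, which overlaps IAA5 on the opposite strand, rose in all 3 organs, and reads of the pair cannot be told apart without strand. IAA19 (AT3G15540, chr3:5264001-5265695) was at 1.07, 0.457 and 4.08 FPKM in WT cotyledons and 4.94, 6.46 and 5.86 FPKM in pifq (log2 change 1.44 ± 0.40 SE, adjusted p = 0.00549). In hypocotyls it was at 50.2, 18.4 and 61 FPKM in WT and 76, 69.2 and 80.7 FPKM in pifq, and the call missed the threshold (log2 change 0.95 ± 0.40 SE, adjusted p = 0.0578). All pifq libraries lay above those of WT there, and the call was made without WT hypocotyl replicate 3 (adjusted p = 0.0216) and without WT cotyledon replicates 2 or 3 (0.0401 and 0.0205). In hooks IAA19 was at 49.1 ± 6.17 FPKM in WT and 32.9 ± 9.11 FPKM in pifq (log2 change -0.59 ± 0.40 SE, adjusted p = 0.217). The groups did not overlap there, and a fit to the hook libraries alone called IAA19 lower (adjusted p = 0.0271).

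IAA7, IAA14, IAA16 and IAA17 form a further group, known from the axr2, slr and axr3 mutants, whose stabilised proteins shorten the hypocotyl or block lateral roots. In cotyledons IAA17 (AT1G04250, chr1:1136078-1138663) was at 3.58, 0.658 and 12.1 FPKM in WT and 13, 12.5 and 14.3 FPKM in pifq (log2 change 1.62 ± 0.55 SE, adjusted p = 0.018), and the call was lost without WT cotyledon replicate 2, the lowest library (adjusted p = 0.127), and in a fit to the cotyledon libraries alone (adjusted p = 0.0615). In hooks it fell from 143, 194 and 188 FPKM to 27, 59.1 and 14.5 FPKM (log2 change -2.56 ± 0.55 SE, adjusted p = 0.000786), each pifq library lying below each WT library. In hypocotyls the values were 651, 313 and 549 FPKM in WT and 311, 329.6 and 369 FPKM in pifq, which overlapped (log2 change -0.52 ± 0.55 SE, adjusted p = 0.447). IAA7 (AT3G23050, chr3:8194606-8197161) rose in cotyledons, from 8.33, 6.33 and 21.3 FPKM to 46.7, 50.9 and 38 FPKM (log2 change 1.99 ± 0.30 SE, adjusted p = 2.99e-05). Its levels in WT and pifq were 293 ± 16.8 and 220.3 ± 63.6 FPKM in hooks and 312 ± 62.3 and 471 ± 59.1 FPKM in hypocotyls, with no call in either organ. In hypocotyls each pifq library of IAA7 lay above each WT library, and the call was made in a fit to those libraries alone (adjusted p = 0.0315) and without WT cotyledon replicate 3 (0.0155). IAA14 (AT4G14550, chr4:8347822-8350263) rose in all 3 organs, from 0.492 ± 0.139 to 1.16 ± 0.39 FPKM in cotyledons (log2 change 0.53 ± 0.18 SE, adjusted p = 0.0183), from 5.05 ± 1.2 to 7.46 ± 2.26 FPKM in hooks (log2 change 0.47 ± 0.18 SE, adjusted p = 0.0322) and from 4.6 ± 0.446 to 8.67 ± 0.637 FPKM in hypocotyls (log2 change 0.79 ± 0.18 SE, adjusted p = 0.0016). The IAA14 groups overlapped in the hook, and that call was lost without pifq hook replicate 2 (adjusted p = 0.195) and without WT hook replicates 1 or 2 (adjusted p = 0.0793 and 0.146). Its cotyledon call was lost without WT cotyledon replicate 2 or pifq cotyledon replicate 1 (adjusted p = 0.0722 and 0.0993). IAA16 (AT3G04730, chr3:1288155-1290891) rose in hypocotyls from 111 ± 11.9 to 177 ± 22.6 FPKM (log2 change 0.67 ± 0.11 SE, adjusted p = 8.59e-05). In WT and pifq it was at 60.5 ± 2.19 and 59.8 ± 3.93 FPKM in cotyledons and at 119 ± 6.36 and 109.8 ± 12.5 FPKM in hooks, with no call.

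**Figure D4:**
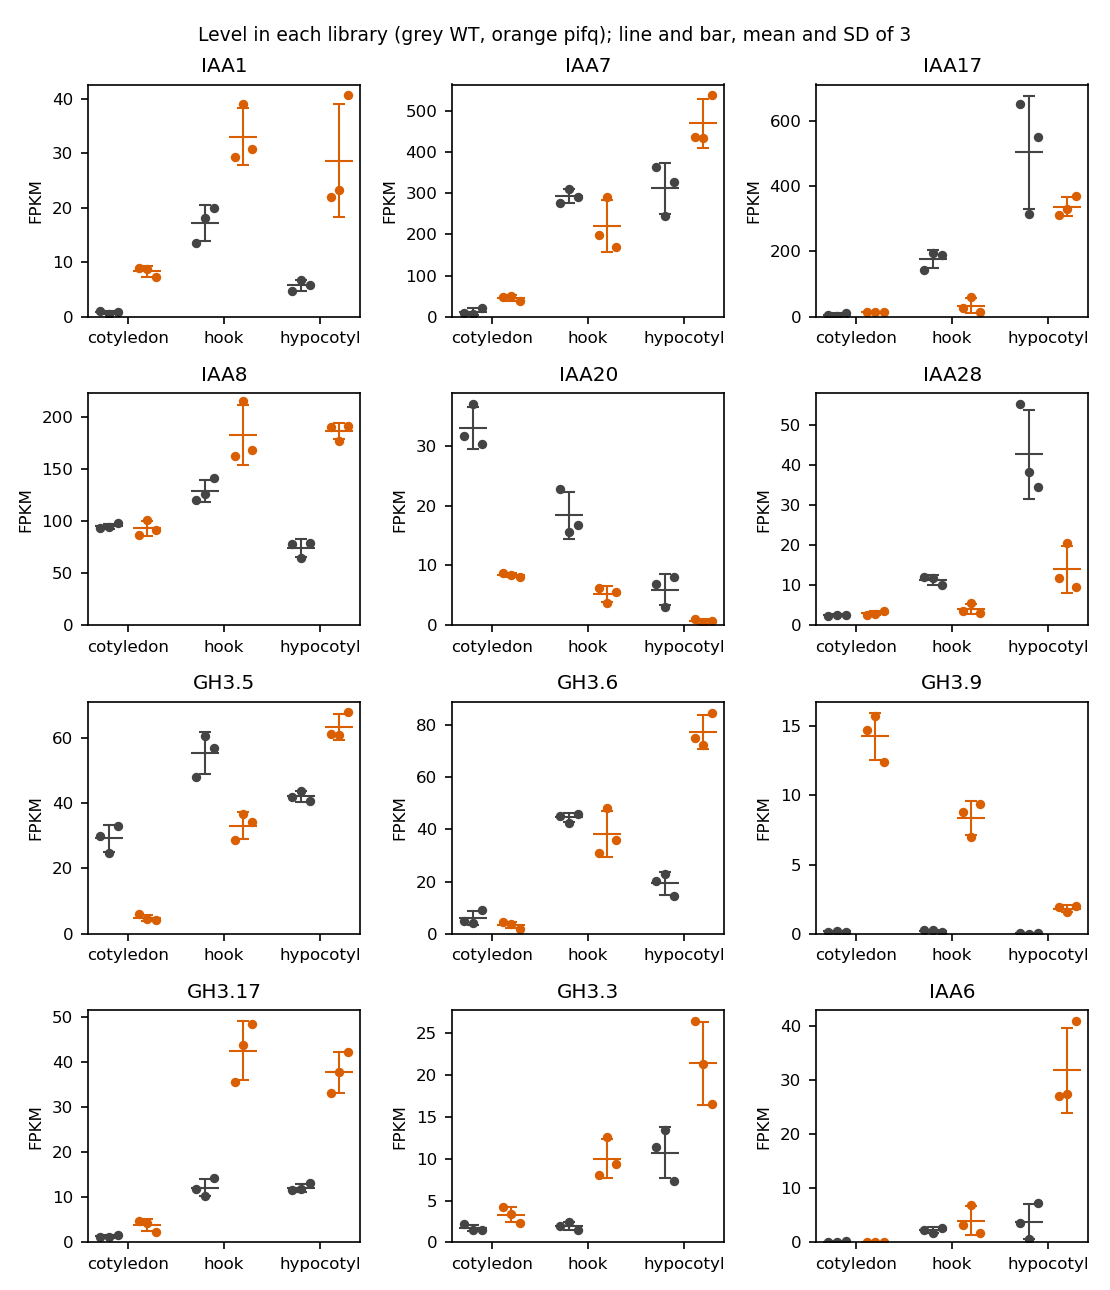
FPKM of 12 genes in each library, WT in grey and pifq in orange, with the mean and SD of 3 libraries; each panel has its own linear scale. GH3.9 lies near 0 in WT and at up to 15.7 FPKM in pifq, GH3.5 is lower in pifq cotyledons and hooks and higher in pifq hypocotyls, and IAA20 is lower in pifq in each organ.

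IAA8, IAA9 and IAA27 have the longest coding sequences of the genes with a degron core and were detected in every library. IAA8 (AT2G22670, chr2:9636346-9638761) was at 78.3, 64.4 and 79.3 FPKM in WT hypocotyls and 190.4, 177 and 191 FPKM in pifq (log2 change 1.32 ± 0.11 SE, adjusted p = 1.23e-07), with no overlap. It also rose in hooks, from 129 ± 10.6 to 182 ± 28.8 FPKM (log2 change 0.48 ± 0.11 SE, adjusted p = 0.00136), and in cotyledons it was at 94.8 ± 2.51 FPKM in WT and 93.1 ± 7.13 FPKM in pifq. IAA27 (AT4G29080, chr4:14323296-14325361), also named phytochrome-associated protein 2, rose in hooks from 6.1, 6.03 and 7.35 FPKM to 16.5, 22.6 and 14.6 FPKM (log2 change 1.32 ± 0.15 SE, adjusted p = 1.98e-06) and in hypocotyls from 10.8 ± 1.24 to 18.3 ± 2.51 FPKM (log2 change 0.71 ± 0.15 SE, adjusted p = 0.000994). The IAA27 libraries of the genotypes did not overlap in either organ. In cotyledons they did not overlap either, at 7.22 ± 0.966 FPKM in WT and 5.39 ± 0.72 FPKM in pifq (log2 change -0.36 ± 0.15 SE, adjusted p = 0.0504), and IAA27 was called lower there in 8 of 24 alternative settings. AT4G29070 overlaps IAA27 on the opposite strand, at 11.8 FPKM in WT hooks and 15.0 FPKM in pifq hooks. IAA9 (AT5G65670, chr5:26253408-26256544) was called, among the 3 organs, in hypocotyls, where it rose from 226 ± 22.1 to 280.5 ± 7.07 FPKM (log2 change 0.32 ± 0.12 SE, adjusted p = 0.0338). That call was lost without WT hypocotyl replicate 2 (adjusted p = 0.138) and without pifq hypocotyl replicates 1, 2 or 3 (adjusted p = 0.0558, 0.0647 and 0.0808), and in a fit to the hypocotyl libraries alone (0.0548). In hooks IAA9 was at 168 ± 10.01 FPKM in WT and 148 ± 28.3 FPKM in pifq (log2 change -0.19 ± 0.12 SE, adjusted p = 0.172), and without pifq hook replicate 2 it was called lower (adjusted p = 0.0103). In cotyledons it was at 71 ± 3.18 and 62.1 ± 6.28 FPKM in WT and pifq (log2 change -0.19 ± 0.12 SE, adjusted p = 0.174).

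IAA10 to IAA13 are related repressors, of which IAA12 is known from the bodenlos mutant, which lacks the embryonic root. IAA13 (AT2G33310, chr2:14113025-14116089) fell in cotyledons from 16.4, 18.3 and 17.4 FPKM to 9.72, 9.19 and 8.82 FPKM (log2 change -0.84 ± 0.10 SE, adjusted p = 3.81e-06) and in hypocotyls from 37.7 ± 1.91 to 26.8 ± 0.861 FPKM (log2 change -0.48 ± 0.10 SE, adjusted p = 0.00119), and in hooks it was at 15.7 ± 0.331 and 16.6 ± 3.39 FPKM in WT and pifq with no call. IAA12 (AT1G04550, chr1:1240294-1242157), its closest relative, rose in hooks from 16.5 ± 0.839 to 26.1 ± 1.88 FPKM (log2 change 0.63 ± 0.10 SE, adjusted p = 3.35e-05) and in hypocotyls from 17.1 ± 2.75 to 22.8 ± 1.32 FPKM (log2 change 0.40 ± 0.10 SE, adjusted p = 0.00237). In cotyledons it was at 21.6 ± 0.495 FPKM in WT and 23.2 ± 0.395 FPKM in pifq (log2 change 0.10 ± 0.10 SE, adjusted p = 0.389). IAA11 (AT4G28640, chr4:14142063-14143969) rose in hypocotyls from 5.46 ± 1.06 to 8.58 ± 0.719 FPKM (log2 change 0.58 ± 0.18 SE, adjusted p = 0.0113), a call lost without WT hypocotyl replicate 3 (adjusted p = 0.0614). It was at 11.6 ± 2.34 and 9.72 ± 0.467 FPKM in WT and pifq cotyledons and 5.84 ± 1.74 and 7.3 ± 0.598 FPKM in hooks, with no call. IAA10 (AT1G04100, chr1:1059470-1061209), with a highest value of 3.05 FPKM in any library, rose from 0.509 ± 0.121 to 1.03 ± 0.256 FPKM in cotyledons (log2 change 0.42 ± 0.15 SE, adjusted p = 0.0232) and from 0.773 ± 0.167 to 1.39 ± 0.44 FPKM in hooks (log2 change 0.42 ± 0.15 SE, adjusted p = 0.0244). In hypocotyls it was at 2.65 ± 0.359 and 2.21 ± 0.428 FPKM in WT and pifq with no call. Its cotyledon call was lost without WT cotyledon replicates 2 or 3 (adjusted p = 0.0684 and 0.0695) or pifq cotyledon replicate 3 (0.107). The hook call of IAA10 was lost without WT hook replicates 2 or 3 (adjusted p = 0.0921 and 0.0536) or pifq hook replicate 2 (0.134).

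IAA18, IAA26 and IAA28 form a group in which IAA28 is known from a mutant with few lateral roots. IAA28 (AT5G25890, chr5:9033204-9035140) was at 12.1, 11.8 and 9.93 FPKM in WT hooks and 3.55, 5.46 and 3.01 FPKM in pifq hooks (log2 change -1.32 ± 0.23 SE, adjusted p = 0.000148), and at 55.2, 38.2 and 34.3 and 11.8, 20.5 and 9.52 FPKM in hypocotyls (log2 change -1.58 ± 0.23 SE, adjusted p = 3.96e-05). It fell in both organs without overlap, and in cotyledons it was at 2.43 ± 0.237 and 2.98 ± 0.552 FPKM in WT and pifq with no call. IAA26 (AT3G16500, chr3:5612203-5614803), also named phytochrome-associated protein 1, fell in cotyledons from 22.2 ± 2.21 to 13.1 ± 1.09 FPKM (log2 change -0.72 ± 0.10 SE, adjusted p = 1.91e-05). In hooks IAA26 fell from 19.8 ± 1.54 to 16.4 ± 1.59 FPKM (log2 change -0.26 ± 0.10 SE, adjusted p = 0.0401), a call lost without WT hook replicates 1 or 2 (adjusted p = 0.152 and 0.0583) or pifq hook replicates 1 or 2 (0.175 and 0.0595). In hypocotyls it was at 7.53 ± 0.738 and 6.93 ± 0.425 FPKM in WT and pifq with no call. IAA18 (AT1G51950, chr1:19305081-19307518) rose from 15.6 ± 2.67 to 20.7 ± 0.989 FPKM in hooks (log2 change 0.40 ± 0.12 SE, adjusted p = 0.012) and from 9.49 ± 0.589 to 13.1 ± 1.49 FPKM in hypocotyls (log2 change 0.42 ± 0.12 SE, adjusted p = 0.00925), and the hook call was lost without WT hook replicates 2 or 3 (adjusted p = 0.0524 and 0.0605). In cotyledons IAA18 was at 22 ± 3.43 FPKM in WT and 18.6 ± 1.73 FPKM in pifq with no call.

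The repressors without the degron core did not move together. IAA20 (AT2G46990, chr2:19307714-19309071) was at 31.7, 37 and 30.4 FPKM in WT cotyledons and 8.78, 8.36 and 8.11 FPKM in pifq (log2 change -1.85 ± 0.25 SE, adjusted p = 1.12e-05). In hooks it was at 22.8, 15.6 and 16.7 and 6.26, 3.74 and 5.58 FPKM (log2 change -1.65 ± 0.25 SE, adjusted p = 3.83e-05), and in hypocotyls at 6.85, 3.0 and 8.01 and 1.07, 0.278 and 0.636 FPKM (log2 change -2.01 ± 0.25 SE, adjusted p = 8.45e-06). It was the 1 gene of the 34 that fell in all 3 organs, as 8.33% of all genes did, with no overlap in any. IAA30 (AT3G62100, chr3:22995686-22996809), which shares its CACGTG and TGTCTC layout, rose in hooks from 1.35, 0.87 and 0.949 FPKM to 4.31, 5.14 and 3.72 FPKM (log2 change 1.39 ± 0.15 SE, adjusted p = 1.25e-06) and in hypocotyls from 0.949, 0.872 and 0.756 FPKM to 2.4, 2.87 and 3.21 FPKM (log2 change 1.04 ± 0.15 SE, adjusted p = 4.09e-05), and had 0.521 ± 0.265 and 0.729 ± 0.226 FPKM in WT and pifq cotyledons with no call. IAA32 and IAA34 are known as partners of the kinase TMK1 on the concave side of the hook, where they restrain growth. IAA32 (AT2G01200, chr2:117969-120095) fell in hooks from 10.6, 11.8 and 15.3 FPKM to 4.2, 4.98 and 3.13 FPKM (log2 change -1.41 ± 0.21 SE, adjusted p = 2.66e-05). In hypocotyls its groups overlapped, at 2.41 ± 0.741 and 1.27 ± 0.519 FPKM (log2 change -0.59 ± 0.21 SE, adjusted p = 0.0278), and the call was lost without WT hypocotyl replicates 2 or 3 (adjusted p = 0.109 and 0.0874) or pifq hypocotyl replicates 2 or 3 (0.0665 and 0.12), and in a fit to the hypocotyl libraries alone (0.0778). In cotyledons it was at 0.805 ± 0.274 FPKM in WT and 0.346 ± 0.213 FPKM in pifq (log2 change -0.42 ± 0.21 SE, adjusted p = 0.0946), and was called lower with a pseudocount of 0.1 and in a fit to the cotyledon libraries alone. IAA34 (AT1G15050, chr1:5181991-5183413) rose in hooks from 1.11, 1.64 and 1.8 FPKM to 4.87, 4.22 and 3.96 FPKM (log2 change 1.10 ± 0.20 SE, adjusted p = 0.000157) and in cotyledons from 0.594 ± 0.156 to 2.05 ± 0.485 FPKM (log2 change 0.93 ± 0.20 SE, adjusted p = 0.000662), and in hypocotyls it was at 0.439 ± 0.422 and 0.878 ± 0.347 FPKM in WT and pifq with no call. AT1G15060, which overlaps IAA34 on the same strand, also rose in both, from 13.3 to 16.1 FPKM in cotyledons and from 12.4 to 16.04 FPKM in hooks.

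IAA29 and IAA15 stand outside these groups. IAA29 (AT4G32280, chr4:15583332-15584903), which other work names among PIF targets, rose in cotyledons from 0.421, 0.765 and 0.536 FPKM to 2.06, 2.21 and 2.21 FPKM (log2 change 1.01 ± 0.17 SE, adjusted p = 0.000105) and in hypocotyls from 1.3, 2.14 and 1.35 FPKM to 5.66, 4.19 and 5.27 FPKM (log2 change 1.23 ± 0.17 SE, adjusted p = 2.62e-05). In hooks it was at 8.53 ± 1.94 FPKM in WT and 9.72 ± 2.33 FPKM in pifq, with no call. IAA15 (AT1G80390, chr1:30221629-30222769) rose in hooks from 0.73 ± 0.215 to 1.91 ± 1.02 FPKM (log2 change 0.70 ± 0.24 SE, adjusted p = 0.0168), a call lost without WT hook replicate 3 (adjusted p = 0.0609) or pifq hook replicate 3 (0.111). It was not called in cotyledons, at 0.446 ± 0.427 and 0.247 ± 0.12 FPKM in WT and pifq, or in hypocotyls, at 0.0699 ± 0.0645 and 0.53 ± 0.372 FPKM.

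Among the auxin-conjugating enzymes, GH3.9 (AT2G47750, chr2:19560127-19563960) changed most in cotyledons and hooks. It was at 0.132, 0.237 and 0.137 FPKM in WT cotyledons, from 5, 12 and 7 reads, and at 14.7, 15.7 and 12.4 FPKM in pifq (log2 change 3.70 ± 0.12 SE, adjusted p = 1.04e-11), a ratio of mean FPKM of 84.5. In hooks it was at 0.249, 0.273 and 0.141 FPKM in WT and 8.79, 6.96 and 9.35 FPKM in pifq (log2 change 2.93 ± 0.12 SE, adjusted p = 2.48e-11). In hypocotyls 4, 0 and 2 reads stood behind the WT values and 107, 82 and 121 behind those of pifq, at 0.0759, 0 and 0.0395 FPKM in WT and 1.94, 1.54 and 2.0 FPKM in pifq (log2 change 1.44 ± 0.12 SE, adjusted p = 1.34e-07). Every pifq library lay above every WT library of its organ, and the level fell from cotyledon to hypocotyl in pifq. AT2G09955, on the opposite strand of GH3.9, was at 0 in WT and at most 0.0499 FPKM on average in pifq.

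GH3.5 and GH3.6, whose overproduction dwarfs seedlings and shortens hypocotyls, were both called higher in hypocotyls and lower in cotyledons, and GH3.5 was lower in hooks too. GH3.5 (AT4G27260, chr4:13653579-13656285) fell in cotyledons from 29.9, 24.8 and 32.9 FPKM to 5.95, 4.41 and 4.38 FPKM (log2 change -2.35 ± 0.13 SE, adjusted p = 4.38e-10) and in hooks from 48.2, 60.7 and 56.9 FPKM to 28.7, 36.6 and 34.1 FPKM (log2 change -0.72 ± 0.13 SE, adjusted p = 0.000136). In hypocotyls it rose from 42, 43.8 and 40.5 FPKM to 61.3, 60.8 and 67.9 FPKM (log2 change 0.58 ± 0.13 SE, adjusted p = 0.00128). The genotypes did not overlap in any organ, and GH3.5 was the 1 gene called in all 3 organs with both directions among them, as 4.83% of all genes were. GH3.6 (AT5G54510, chr5:22130964-22133688) rose in hypocotyls from 20.4, 23 and 14.4 FPKM to 75.1, 72.4 and 84.8 FPKM (log2 change 1.97 ± 0.25 SE, adjusted p = 9.42e-06). In hooks it was at 45.3, 42.6 and 46 FPKM in WT and 30.9, 48 and 36 FPKM in pifq (log2 change -0.24 ± 0.25 SE, adjusted p = 0.435). In cotyledons the values were 4.86, 4.16 and 9.08 FPKM in WT and 4.49, 3.71 and 1.9 FPKM in pifq (log2 change -0.67 ± 0.25 SE, adjusted p = 0.03), which overlapped. The cotyledon call was lost without WT cotyledon replicate 3 (adjusted p = 0.191) or pifq cotyledon replicate 3 (0.182), in a fit to the cotyledon libraries alone (0.0997) and with median-ratio scaling (0.0973).

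GH3.17 (AT1G28130, chr1:9825169-9828118), which joins auxin to glutamate, rose in every organ. It was at 1.21, 1.14 and 1.63 FPKM in WT cotyledons and 4.81, 4.4 and 2.36 FPKM in pifq (log2 change 1.03 ± 0.18 SE, adjusted p = 0.000129). Hooks held 11.9, 10.4 and 14.2 FPKM in WT and 35.4, 43.6 and 48.3 FPKM in pifq (log2 change 1.72 ± 0.18 SE, adjusted p = 6.71e-07), and hypocotyls 11.5, 11.8 and 13.1 and 33.1, 37.7 and 42.2 FPKM (log2 change 1.55 ± 0.18 SE, adjusted p = 3.54e-06). Every pifq library lay above all WT libraries of its organ. GH3.3 (AT2G23170, chr2:9863855-9866562) rose in all 3 organs too, from 1.7 ± 0.387 to 3.33 ± 0.948 FPKM in cotyledons (log2 change 0.67 ± 0.23 SE, adjusted p = 0.0191), from 1.91, 2.45 and 1.45 FPKM to 8.01, 12.5 and 9.37 FPKM in hooks (log2 change 1.90 ± 0.23 SE, adjusted p = 3.03e-06) and from 10.7 ± 3.06 to 21.4 ± 4.96 FPKM in hypocotyls (log2 change 0.95 ± 0.23 SE, adjusted p = 0.0025). Its cotyledon call was lost without WT cotyledon replicates 2 or 3 (adjusted p = 0.0616 and 0.0605) or pifq cotyledon replicates 1 or 2 (0.0914 and 0.0538). GH3.2 (AT4G37390, chr4:17579618-17582022), with CACGTG in its promoter window, rose in hooks from 0.646, 1.01 and 0.734 FPKM to 2.71, 4.24 and 4.32 FPKM (log2 change 1.39 ± 0.31 SE, adjusted p = 0.00105). In cotyledons it was at 1.5 ± 0.118 FPKM in WT and 0.518 ± 0.129 FPKM in pifq, without overlap, and missed the threshold (log2 change -0.73 ± 0.31 SE, adjusted p = 0.0537). It was called lower there in 4 of 24 alternative settings, among them a pseudocount of 0.1 (adjusted p = 0.0142) and a fit to the cotyledon libraries alone (0.000487). It was not called in hypocotyls, at 2.94, 3.46 and 2.1 FPKM in WT and 5.54, 3.06 and 0.824 FPKM in pifq. GH3.1 (AT2G14960, chr2:6451319-6453797) rose in hypocotyls from 0.57, 1.13 and 0.49 FPKM to 3.24, 4.19 and 1.49 FPKM (log2 change 1.15 ± 0.21 SE, adjusted p = 0.00022) and had at most 12 reads per library elsewhere.

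The effect of pifq was compared between organs with interaction terms. It differed between hook and cotyledon for 22 of 34 genes (41.4% of all genes), between hypocotyl and cotyledon for 18 (45.7%) and between hypocotyl and hook for 20 (29.1%). In all, 31 of the 34 had at least 1 such difference, as 64.6% of all genes did, and none was called for IAA14, IAA20 and IAA34. The log2 change of IAA20, low in pifq hypocotyls, ranged from -3.25 to -1.78 there over 24 alternative settings. In cotyledons its range was -2 to -1.66. Median-ratio scaling moved the median of all genes by -0.316, -0.385 and -0.054 in the comparisons between organs. The scaling moved the share of positive differences among all calls from 73.6% to 39.5%, from 75.8% to 39.8% and from 57% to 49.2%. It left 18, 13 and 18 of the 34 genes called, and the shares of all genes called with it are not given here. Largest in size among the differences between hook and cotyledon was that of IAA17, whose log2 effect in the hook minus that in the cotyledon was -4.18 ± 0.78 (SE, adjusted p = 0.000538). The effect in the hypocotyl minus that in the cotyledon was 2.93 ± 0.18 (SE, adjusted p = 2.5e-08) for GH3.5 and 2.65 ± 0.36 (SE, adjusted p = 2.91e-05) for GH3.6. For GH3.9, higher in pifq in both organs, the same difference was -2.26 ± 0.17 (SE, adjusted p = 2e-07). WT values of GH3.9 lay near 0, so the size of this difference depends on the 1 added to FPKM. Over 24 alternative settings, its log2 change ranged from 3.63 to 6.3 in cotyledons and from 1.37 to 5.52 in hypocotyls.

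Of the other genes of the auxin pathway, 35 were listed and 33 tested. They showed 6 higher and 16 lower in pifq cotyledons, 11 higher and 13 lower in hooks, and 9 higher and 8 lower in hypocotyls. Among all genes tested, 24.4% were higher and 35.4% lower in cotyledons, 36.6% and 24% in hooks, and 35.9% and 16.5% in hypocotyls. Of 6 receptor genes, 5 fell and 1 rose in cotyledons, 4 fell in hooks and 1 fell in hypocotyls. The activating factor ARF6 fell in cotyledons from 29.3 to 9.93 FPKM, and the receptor AFB5 from 51.2 to 22.5 FPKM. YUC9 and YUC5, enzymes of auxin synthesis, rose in cotyledons from 0.132 to 3.16 FPKM and from 0.160 to 2.37 FPKM, and fell in hypocotyls from 4.82 to 0.747 FPKM and from 4.04 to 0.289 FPKM. In hooks the synthesis enzyme TAA1 fell from 47.7 to 10.99 FPKM and the receptor AFB1 from 48.2 to 14.9 FPKM, while ARF5 rose from 5.19 to 16.9 FPKM. The oxidase gene DAO2 rose in hooks from 14.5 to 27.9 FPKM and in hypocotyls from 18.9 to 99.2 FPKM, and DAO1 rose in hypocotyls from 6.26 to 16.99 FPKM.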

How the data were processed

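Transcripts were measured by RNA sequencing of 18 libraries. Per the labels' protocols, Trizol was used for RNA, DNase I for its treatment and a NEBNext Ultra RNA kit for libraries, with no strand setting given. The submitters' processing notes name HISAT2, DESeq2 and TAIR10 without roles; the counter and annotation are not given in the sources used here. The authors deposited FPKM values, 1 per gene and library. The headers name no unit, but 99.37% to 99.50% of values below 100 reads, multiplied by exon length, were whole numbers of reads within 0.05, which gave depth from 25788 of 26073 genes.

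Tests used limma 3.58.1 in R 4.3.3, with a trend, on log2(FPKM + 1), in 1 fit of 6 group means over all 18 libraries. A gene entered if 3 or more libraries reached 1 FPKM, which 19349 genes did. The call rule was an adjusted p under 0.05 (Benjamini-Hochberg, all genes tested). Changes on this scale understate those of low genes. "Rose" and "fell" are used of called genes. The design named a count test for counts; the values are FPKM, so limma was used, with limma-voom on recovered reads as an alternative. The fit was tested on simulated data. Coordinates and sequences are RefSeq, TAIR10.1, joined by locus tag.

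All genes found by the rule are named, with group values in each organ where they were called or reached a mean of 20 FPKM. Of the pathway list, at most 2 called rises and 2 called falls per organ are named. The genes and lists were chosen with earlier results of these data known. Alternatives tried were another pseudocount (0.1), no filter, median-ratio scaling, a replicate block, limma-voom on the recovered reads, fits to the compared libraries alone, and leaving out each library.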

Additional observations from a re-analysis of the deposited data

Results flagged for a closer look

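The log2 effect of pifq against WT differed between organs for 31 of the 34 genes tested and for 64.6% of all genes, by a limma interaction term with an adjusted p under 0.05 over all genes. For each gene the pair of organs named is the one with the lowest adjusted p, so these values are the strongest of 3 differences per gene. They rest on 3 libraries per group and were not followed gene by gene when a library was left out or with another pseudocount. With 1 added to FPKM, a gene near 0 in an organ shows a smaller change there, which can by itself give a difference. This limit holds for IAA6, IAA32 and GH3.1, low in cotyledons, and for GH3.9, low in WT, among others. Over the alternative settings, the log2 change of IAA32 ranged from -1.32 to -0.34 in cotyledons and from -1.65 to -1.27 in hooks. The effect in hooks minus that in cotyledons was negative for IAA17 (-4.18, adjusted p = 0.000538), IAA7 (-2.44, adjusted p = 0.000333), IAA19 (-2.02, adjusted p = 0.00946) and IAA1 (-1.48, adjusted p = 8e-04). It was also negative for IAA2 (-1.37, adjusted p = 0.00212) and IAA32 (-0.99, adjusted p = 0.0143). The effect in hooks minus that in cotyledons was positive for GH3.2 (2.12, adjusted p = 0.00124), IAA27 (1.68, adjusted p = 2.53e-05), GH3.3 (1.23, adjusted p = 0.00644) and IAA30 (1.20, adjusted p = 0.000455). It was also positive for IAA13 (0.90, adjusted p = 0.000207), IAA15 (0.88, adjusted p = 0.0442), GH3.17 (0.70, adjusted p = 0.0385) and IAA12 (0.53, adjusted p = 0.00555). The effect in hypocotyls minus that in cotyledons was negative for GH3.9 (-2.26, adjusted p = 2e-07), IAA28 (-1.79, adjusted p = 0.000447) and IAA10 (-0.61, adjusted p = 0.0279). The effect in hypocotyls minus that in cotyledons was positive for IAA6 (3.02, adjusted p = 0.000871), GH3.5 (2.93, adjusted p = 2.5e-08), GH3.6 (2.65, adjusted p = 2.91e-05) and IAA8 (1.35, adjusted p = 8.09e-06). It was also positive for GH3.1 (1.19, adjusted p = 0.00365), IAA11 (0.80, adjusted p = 0.0155), IAA18 (0.65, adjusted p = 0.00725) and IAA26 (0.61, adjusted p = 0.00312). So it was for IAA9 (0.51, adjusted p = 0.0208). The effect in hypocotyls minus that in hooks was positive for IAA4 (1.30, adjusted p = 0.000292), IAA5 (1.23, adjusted p = 0.0404), IAA3 (1.18, adjusted p = 0.000658) and IAA29 (1.06, adjusted p = 0.00453). It was also positive for IAA16 (0.78, adjusted p = 0.00127).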

How the results depend on the processing

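Over 24 alternative settings, 49 of the 64 calls between genotypes (12 of 17 in cotyledons, 17 of 22 in hooks and 20 of 25 in hypocotyls) were made in every setting, and no called change reversed. With a pseudocount of 0.1, 8 genes in place of 5 were lower in pifq cotyledons. The 2 genes lower in hook than in cotyledon in pifq became 1 with that pseudocount, 1 without the filter, 5 with median-ratio scaling and 1 to 3 when a library was left out. The genes higher in pifq cotyledons numbered 8 to 13 and those lower 4 to 7 when a library was left out, with 8 without WT cotyledon replicate 2, where the calls of IAA10, IAA14, IAA17 and GH3.3 were lost. In hooks these ranges were 11 to 14 and 7 to 8, and in hypocotyls 20 to 23 and 3 to 4. When a library was left out, the pifq effect differed between hook and cotyledon for 19 to 22 genes. It differed between hypocotyl and cotyledon for 15 to 20, and between hypocotyl and hook for 14 to 22. Limma-voom on the recovered reads lost IAA14 and GH3.3 in cotyledons and IAA10 and IAA15 in hooks, and gained IAA15 and IAA19 in hypocotyls. Fits to the compared libraries alone lost IAA17 and GH3.6 in cotyledons, IAA10, IAA14 and IAA26 in hooks, and IAA9 and IAA32 in hypocotyls, and gained IAA27, IAA32 and GH3.2 in cotyledons, IAA19 in hooks and IAA7 in hypocotyls. The pseudocount of 0.1 lost IAA14 and IAA15 in hooks and gained IAA5, IAA27, IAA32 and GH3.2 in cotyledons and IAA15 and IAA34 in hypocotyls. Calls gained when a library was left out were those of IAA5, IAA27 and GH3.2 in cotyledons, IAA5, IAA9 and IAA11 in hooks, and IAA3, IAA7, IAA15, IAA19 and IAA34 in hypocotyls. The cause of these moves was not tested. Same-numbered libraries correlated at -0.221 to 0.247 in their deviations, and 0 of 18 correlated best with their own number in every other group. Every correlation was over 0.1 in 1 of 15 pairs of groups, pifq hooks and pifq hypocotyls (0.120, 0.201 and 0.116), and in no pair of genotypes within an organ. With a replicate block, 15 genes were higher and 9 lower in hypocotyl than in hook in pifq, the counts without it. With the block, 12 genes were higher and 6 lower in cotyledons, IAA27 being added, and counts in hooks and hypocotyls were those without it. Genes near 1 FPKM rest on few reads, which limits what can be seen for IAA6, GH3.1 and GH3.9 in the groups where they were low.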
